A study of Mus musculus with 44 samples.

Results

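In the mouse fibroblast line L929, cells that carried FRMD5 lacking its combined disordered region were compared with cells that carried FRMD5 lacking its coiled-coil and low-complexity domains. The groups of the comparison were defined by the sample titles and held 8 of the 44 libraries of the series, 4 for each deletion. The comparison was chosen with earlier results of these data known. The first group is titled delta-IDR combined domain (Isoform 2) and is called delta-IDR here. The second is titled delta-coiled-coil and -LCDs (Isoform 2) and is called delta-CC-LCD. IDR and LCD are the usual abbreviations of intrinsically disordered region and low-complexity domain. Both groups were thus lines with a truncated isoform 2 of FRMD5, and the series text gives 4 hours of dexamethasone (DEX) for such lines. The other 8 L929 libraries were 4 of full-length FRMD5 (Isoform 2) and 4 of control. They entered the filter on low counts, the scaling and the fit, where they shared its estimate of the spread. Their mean levels are given beside some genes as values. The labels do not say whether the control group received DEX, and they give no concentration of DEX.

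The labels also do not give the ends of the deletions, the promoter that drove the constructs, or how many clones each line held. A difference that the deletions made and a difference between the lines therefore cannot be told apart. The labels are silent on separate cultures for the libraries of a group. The p-values below therefore measure the spread from library to library, part or all of which may be technical. By its title, the series concerns FRMD5 and the functions of the glucocorticoid receptor (GR), and the comparison asks how lines with 2 different truncations of the same protein differed in their messenger RNA.

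FRMD5 is a protein of the cell cortex whose FERM domain binds membranes and the tails of membrane proteins, and it has been linked to cell adhesion. Disordered and low-complexity stretches often mediate weak contacts between many proteins, and coiled coils mediate pairing of proteins. DEX is a synthetic glucocorticoid that binds GR, which then enters the nucleus and raises targets such as Fkbp5, a chaperone partner that lowers GR's affinity for hormone. The largest differences between the deletions lay in another system, the antiviral interferon response. In that response, sensors of viral nucleic acid turn on interferon genes, interferon receptors on the same or neighbouring cells signal through JAK kinases, and a complex of transcription factors that includes STAT2 and IRF9 binds interferon-stimulated response elements (ISRE) in front of antiviral genes. L929 cells are a long-used line for assays of interferon. A further group of differences lay among targets of the hypoxia-inducible factors (HIF), which prolyl hydroxylases mark for destruction when oxygen is plentiful.

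The 8 libraries held 17211270 to 18313407 counts each, and Frmd5 itself took 2, 4, 8 and 6 counts in the delta-IDR libraries and 0, 4, 0 and 1 in delta-CC-LCD, too few to test or to check the labels. Of the variance of the 16 libraries on the log scale, the second principal component held 11.1% and set the deletions apart, at -29.4 to -20.5 for delta-IDR and 2.64 to 13.6 for delta-CC-LCD. Within the groups, delta-CC-LCD library 1 stood apart on the third component (8.002 against 19.5 to 19.8). On the second, delta-IDR library 4 lay nearest to the other deletion. Delta-IDR library 3 held traces of RNA of another tissue. In it, 30 genes had at least 8 counts and at least 70% of all their counts over the 16 libraries, with 584 counts in all, while each of the other 15 libraries held 0 to 2 such genes. They included the epidermal genes Krt1 with 110 counts, Flg with 26 and Lor with 16, and the connective tissue genes Dcn with 22, Lum with 18 and Tnc with 16. Krt1, Lor, Dcn, Lum and Tnc had 0 counts in the other 15 libraries. None of the 30 passed the filter on low counts, but the library also raised Postn (11, 17, 120 and 12 counts in delta-IDR) and Col12a1 (7, 11, 64 and 14), and neither was called (adjusted p = 0.158 and 0.0664). Counts without that library are given beside the main groups below.

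Levels are given as CPM, the count of a gene scaled to a library of 1e+06 counts. As a check of the cell type, 8 of 12 fibroblast markers were tested, with a summed level of 10352 to 11170 CPM in delta-IDR and 10288 to 12126 in delta-CC-LCD. Thy1 and Fap, which also mark fibroblasts, were at 0 to 4 counts in each library, and Lum and Dcn were at 0 outside delta-IDR library 3. Summed markers of macrophages were at 16.4 to 19.6 CPM and 19.4 to 23.7 CPM, and those of endothelium, epithelium and neurons were under 2 CPM in every library. Those of astrocytes, which include the widely expressed folate enzyme Aldh1l1 (-0.54 ± 0.06), were at 141 to 150 CPM and 160 to 168 CPM. The macrophage marker Cd68, a lysosomal protein that fibroblasts also make, was at 6.37, 6.68, 7.67 and 6.47 CPM in delta-IDR and 12.4, 11.7, 10.1 and 11.1 CPM in delta-CC-LCD (-0.74 ± 0.11). The part of such RNA in the results below was not tested. The pan-leukocyte gene Ptprc had 2 counts in all 4 delta-IDR libraries and 0 in delta-CC-LCD.

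Of 14118 genes tested with edgeR's quasi-likelihood test, 3147 (22.3%) differed between the deletions at a Benjamini-Hochberg adjusted p below 0.05. Of these, 1631 (11.6%) were higher in delta-IDR and 1516 (10.7%) were lower. Most differences were small, since the log2 difference of delta-IDR minus delta-CC-LCD ran from -0.52 at the 5th percentile to 0.56 at the 95th, with a median of 0.003. Called differences of at least 2-fold numbered 267 (1.89%), with 145 higher (1.03%) and 122 lower (0.864%). Library ranges of the groups did not overlap for 3234 genes (22.9%). Without delta-IDR library 3, 1292 genes were higher and 1270 lower. With libraries 1 and 3, and 2 and 4, of each group summed into 2, the numbers were 1023 and 1065.

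**Figure D1:**
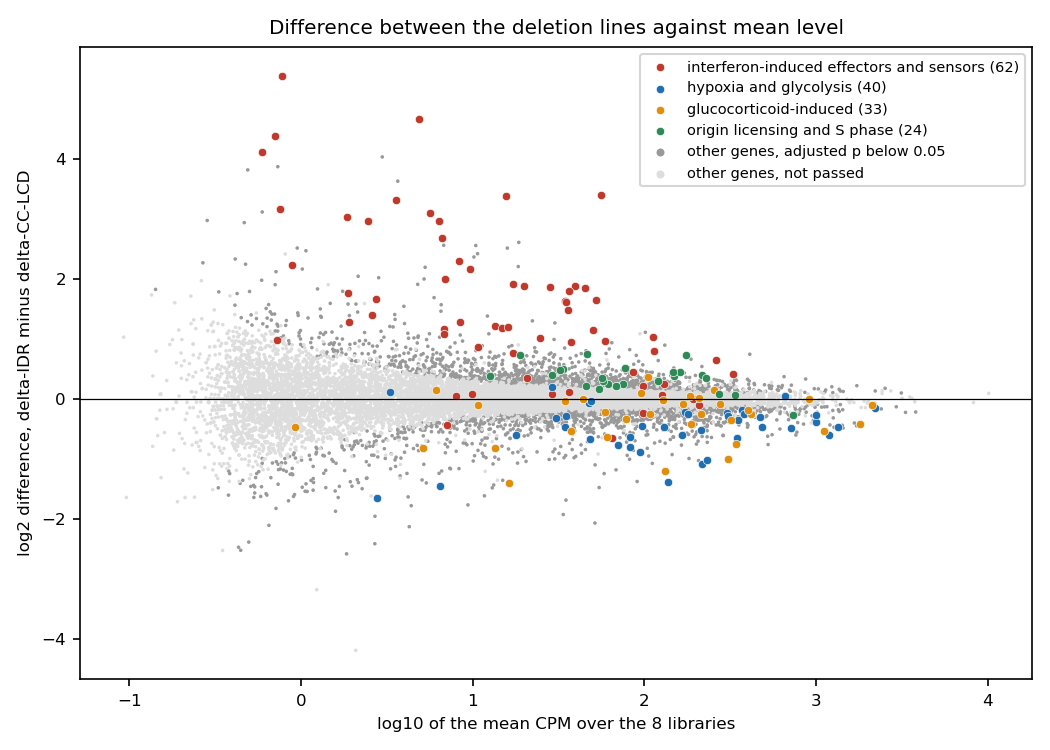
Each point is a tested gene, with its mean level over the 8 libraries on the horizontal axis (CPM, log scale) and its log2 difference of delta-IDR minus delta-CC-LCD on the vertical axis. Most interferon effectors lie above 0, with Rsad2 at 4.65, while the bulk of genes lies between -0.52 and 0.56.

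Most antiviral effector genes had higher levels in delta-IDR. Of 52 tested effectors, 44 were higher and 2 lower, and 35 of the 44 were at least 2-fold higher. The median log2 difference of the 52 was 1.34, against 0.003 over all genes tested, and the background share of genes called higher was 11.6%. Members of this list and of the lists below were chosen with earlier results of these data known, so their counts are a description. The counts of 44 higher effectors and 7 higher sensors were the same in each of the alternative fits, including the one without delta-IDR library 3. The genes of the families named below are similar to each other in sequence, so values of single members of the IFIT, OAS, guanylate-binding and apolipoprotein L families carry the uncertainty of reads shared between copies.

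The upstream sequences of 4 of these genes are shown because each holds the ISRE core that the interferon-activated factor complex is known to bind. Each line gives the 250 bases before the transcription start in RefSeq's GRCm38.p6 annotation, read 5′ to 3′ on the gene's own strand. Capitals mark every match to GAAA, 2 bases of any kind and GAAA again, or to the reverse complement of that run.
Rsad2: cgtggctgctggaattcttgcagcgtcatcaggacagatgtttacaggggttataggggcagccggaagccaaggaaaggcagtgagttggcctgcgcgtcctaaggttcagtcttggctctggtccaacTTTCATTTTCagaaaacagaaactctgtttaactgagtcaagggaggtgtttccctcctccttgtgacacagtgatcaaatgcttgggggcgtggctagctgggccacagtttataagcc
Ifit1: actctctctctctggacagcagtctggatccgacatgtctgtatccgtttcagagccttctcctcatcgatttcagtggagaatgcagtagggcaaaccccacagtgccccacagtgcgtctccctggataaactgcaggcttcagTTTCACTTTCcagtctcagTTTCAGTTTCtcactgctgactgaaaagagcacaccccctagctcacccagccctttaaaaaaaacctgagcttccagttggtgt
Isg15: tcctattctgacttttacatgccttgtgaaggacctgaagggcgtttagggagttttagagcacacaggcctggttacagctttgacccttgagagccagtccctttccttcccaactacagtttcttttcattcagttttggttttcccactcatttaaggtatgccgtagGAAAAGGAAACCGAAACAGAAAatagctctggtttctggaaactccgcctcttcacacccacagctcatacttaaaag
Ddx60: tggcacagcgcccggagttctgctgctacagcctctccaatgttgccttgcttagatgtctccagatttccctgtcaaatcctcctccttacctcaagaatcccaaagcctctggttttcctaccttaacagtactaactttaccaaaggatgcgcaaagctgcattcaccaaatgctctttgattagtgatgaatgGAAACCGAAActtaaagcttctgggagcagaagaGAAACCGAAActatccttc
The Rsad2 window is chr12:26456453-26456702 on the minus strand, with a match that begins at position -120 from the start. That of Ifit1 is chr19:34640639-34640888 on the plus strand, with matches at -104 and -85. The window of Isg15 is chr4:156200819-156201068 on the minus strand, where overlapping matches begin between -78 and -66. The Ddx60 window is chr8:61927837-61928086 on the plus strand, with matches at -53 and -19. Over promoters of 300 bases, from 250 before to 50 after the start, this run was found on either strand in 23 of the 41 effectors that had a promoter in the RefSeq table (56.1%). It was found in 4 of 6 sensors (66.7%) and in 35 of the 93 genes called at least 2-fold higher in delta-IDR (37.6%). Those genes were picked by the same difference and include effectors and sensors, so these shares are not separate results. The share was 3.61% among the 83 genes at least 2-fold lower, 3.82% among 9990 tested genes and 3.99% among all 27025 genes with a promoter. A gene counted when any of its promoters held a match. The promoters of Ifi44, Irf7 and Oasl2 did not hold these letters in this window. A match is a description of the sequence, not of a bound site.

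Of the first element of the system, interferon itself, the 4 listed genes were at or near 0 in these libraries. Ifnb1 had 1 count in the delta-IDR libraries together and 0 in delta-CC-LCD, Ifna4 had 2 and 1, and Ifnl2 and Ifnl3 had 0 counts in each of the 16 L929 libraries. A count of 0 allows up to 3 counts per library. The receptors of interferon were not higher. Ifnar1, a subunit of the type I receptor, was at 71.3 ± 1.36 CPM (SD, n = 4) in delta-IDR and 66.7 ± 2.57 CPM in delta-CC-LCD (0.10 ± 0.05, adjusted p = 0.16). Ifngr1, a subunit of the type II receptor, was lower, at 30.5 ± 2.12 and 39.8 ± 2.72 CPM (-0.39 ± 0.07, adjusted p = 4.71e-05). Of the 3 JAK kinases that serve the receptors and the 5 adaptors and kinases downstream of the sensors, none passed the test. The kinase Tyk2 (0.17 ± 0.07, adjusted p = 0.0685) passed without delta-CC-LCD library 4 (adjusted p = 0.0353).

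Sensors of foreign nucleic acid were higher in 7 of 10, with a median log2 difference of 1.00 and none lower. The called share was 70%, against 22.3% of all genes tested. Ddx58, the gene of the RNA sensor RIG-I, was at 68.8, 59.3, 61.9 and 56.8 CPM in the delta-IDR libraries and at 17.8, 16.1, 15.2 and 18.5 CPM in delta-CC-LCD. The groups lay far apart, with a ratio of means of 3.66 and a log2 difference of 1.87 ± 0.08 (adjusted p = 2.63e-17). Its mean was 13.6 CPM in full-length and 20.1 CPM in control, so that delta-CC-LCD lay among the other L929 groups and delta-IDR above them. Ifih1, the RNA sensor MDA5, ran from 27.5 to 36.3 CPM in delta-IDR and from 7.89 to 8.91 CPM in delta-CC-LCD (1.88 ± 0.12, adjusted p = 6.1e-12). Dhx58, a regulator of both sensors, was higher by 1.21 ± 0.11, and Eif2ak2, the kinase PKR that halts translation on double-stranded RNA, by 0.80 ± 0.05. The endosomal receptor Tlr3 was higher by 1.66 ± 0.20. Zbp1, a sensor of left-handed nucleic acid, was higher by 3.03 ± 0.38, from a mean of 0.396 CPM in delta-CC-LCD.

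Among the transcription factors of the response, 6 of 8 were higher and 1 lower, or 87.5% called against 22.3% of all genes tested. The 6 include Irf1 at 6.53 ± 1.40 and 5.05 ± 0.397 CPM (0.37 ± 0.13, adjusted p = 0.0419), whose call was lost without delta-IDR library 1 (0.0764), 2 (0.245) or 3 (0.0817), or delta-CC-LCD library 1 (0.0915), 2 (0.107) or 4 (0.108). It was also lost with no filter (0.0604), with only both deletions fitted (0.0939) and with libraries summed (0.0675). Irf7, the factor that amplifies interferon production, was at 34.2, 27.8, 33.2 and 32.5 CPM in delta-IDR and at 6.28, 4.87, 4.55 and 5.26 CPM in delta-CC-LCD. Each delta-IDR library was above each delta-CC-LCD library, and the log2 difference was 2.61 ± 0.13 (adjusted p = 2.2e-14). The mean of Irf7 was 3.94 CPM in full-length and 6.51 CPM in control. Of the ISRE-binding complex, Stat2 was at 26.3 ± 2.95 and 17.4 ± 1.20 CPM (0.60 ± 0.08) and Irf9 at 53.9 ± 2.11 and 31.97 ± 2.12 CPM (0.75 ± 0.06). Irf5 was higher by 2.33 ± 0.55 at under 1 CPM in every library. Irf2, a factor that competes with Irf1 and dampens the response, was lower by 0.17 on the log2 scale (-0.17 ± 0.05, adjusted p = 0.0068), and Irf3, the factor that the sensors activate by phosphorylation, did not pass (-0.14 ± 0.08, adjusted p = 0.263).

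Rsad2, which makes the antiviral enzyme viperin, had the largest log2 difference among the named genes whose mean reached 2 CPM. It was at 10.1, 10.7, 9.10 and 7.81 CPM in delta-IDR and at 0.179, 0.352, 0.403 and 0.532 CPM in delta-CC-LCD. The ratio of means was 25.2 and the log2 difference 4.65 ± 0.27 (adjusted p = 6.68e-14), while full-length and control lay at 0.388 and 0.522 CPM. Ifi44, an interferon-induced gene at chr3:151730922-151749960 in the mm10 annotation, was at 117, 104, 94.5 and 94.2 CPM in delta-IDR. In delta-CC-LCD it was at 10.3, 7.86, 10.6 and 10.2 CPM, and the groups did not overlap (3.39 ± 0.11, adjusted p = 1.44e-15). Its mean was 4.93 CPM in full-length and 6.17 CPM in control, so delta-CC-LCD was above both of these means and delta-IDR further above.

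**Figure D2:**
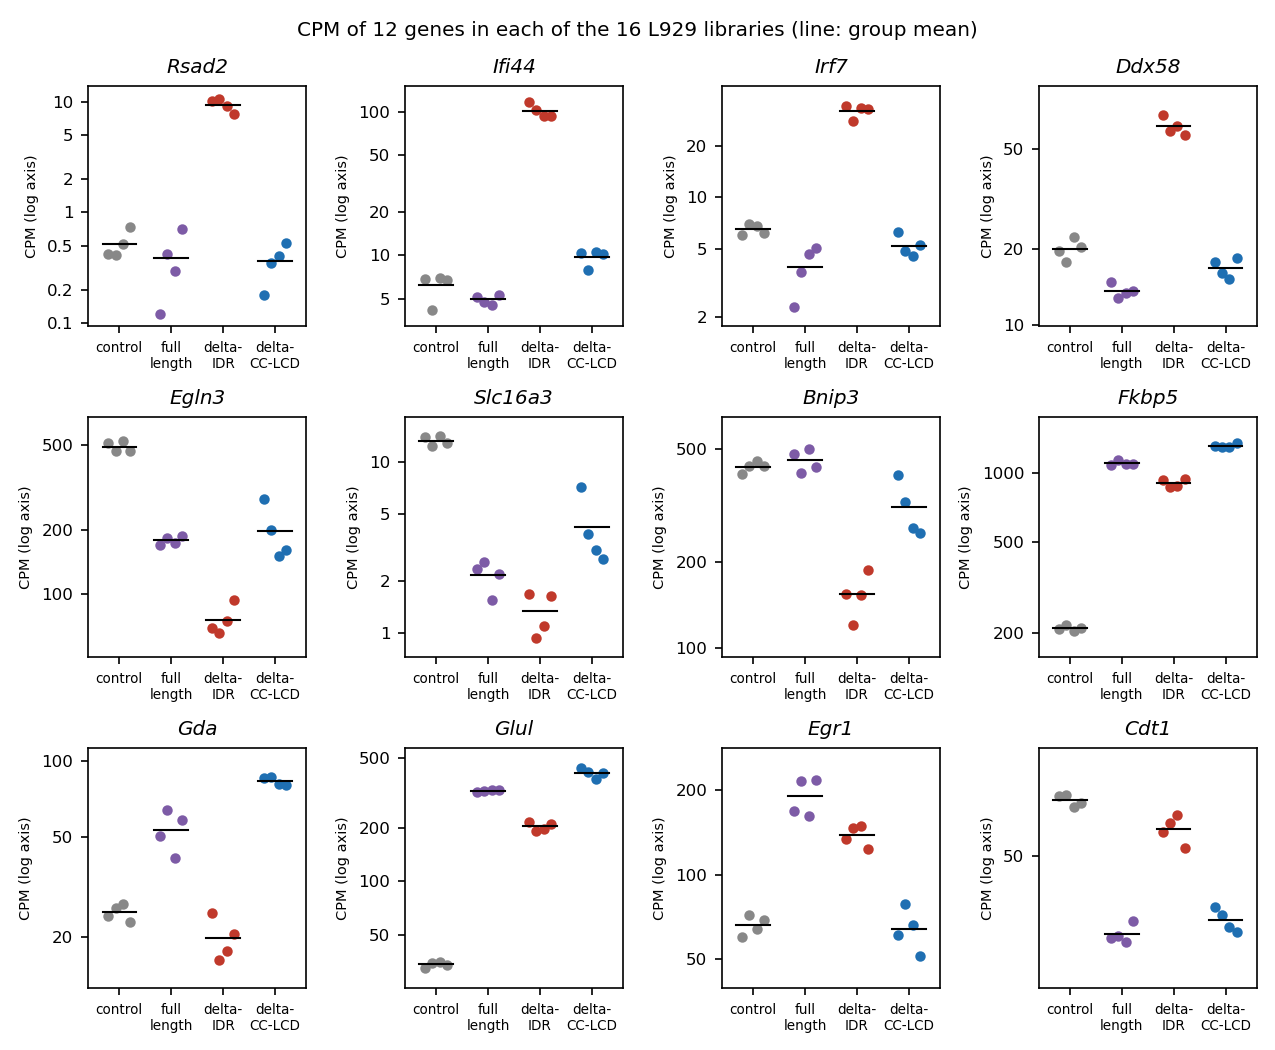
Levels of 12 genes in each of the 16 L929 libraries (CPM, log scale), with 1 point per library and the 4 groups side by side. For Rsad2, Ifi44, Irf7 and Ddx58 the 4 delta-IDR libraries lie above all others, and for Egln3, Slc16a3, Bnip3, Fkbp5, Gda and Glul they lie below the delta-CC-LCD libraries.

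Most members of the other effector families were higher as well, where 11.6% of all genes tested were called higher. All 4 IFIT genes, whose proteins hold back foreign RNA from ribosomes, were higher, with a median of 3.20. Ifit1 was at 9.67, 12.6, 9.73 and 8.22 CPM in delta-IDR and 1.38, 0.293, 1.32 and 1.72 CPM in delta-CC-LCD (3.09 ± 0.32, adjusted p = 4.73e-07). Ifit3 was higher by 3.31 ± 0.28 and Ifit2 by 0.86 ± 0.10. Ifit3b, a close copy of Ifit3, was at 0.986 to 2.29 CPM against at most 0.0598 CPM. Of 8 genes of the oligoadenylate synthase family, which activate an RNase against viral RNA, 7 were higher, with a median of 1.38. Oasl2 was at 34.2, 29.1, 25.4 and 26.1 CPM against 2.57, 2.17, 2.53 and 3.78 CPM (3.37 ± 0.18, adjusted p = 1.15e-12). Oasl1 was higher by 2.97 ± 0.21, Oas2 by 1.80 ± 0.09 and Oas1a by 1.48 ± 0.08.

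Dynamin-like GTPases, which attack membranes around viruses and other parasites, were higher in 10 of 11, with a median of 1.99. Their called share was 90.9%, against 22.3% of all genes tested. Gbp3, a guanylate-binding protein, was at 13.0, 11.9, 11.6 and 9.50 CPM against 1.32, 1.76, 1.61 and 2.48 CPM (2.68 ± 0.26, adjusted p = 8.51e-08). Mx2 was higher by 2.96 ± 0.32, Mx1 by 3.16 ± 0.57 at low levels, Iigp1 by 1.91 ± 0.12 and Irgm1 by 1.14 ± 0.07. Among 24 other effectors, 20 were higher and 1 was lower (87.5% called), with a median of 1.18. Ddx60, a helicase that aids RNA sensing, was at 7.88, 7.06, 5.72 and 6.47 CPM against 0.658, 0.763, 0.461 and 0.296 CPM (3.62 ± 0.28, adjusted p = 2.65e-11). Trim30a, a TRIM-family protein, was higher by 1.85 ± 0.07, with the smallest adjusted p of all genes tested (3.42e-18), and Apol9a by 1.61 ± 0.06.

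The members that were lower were Isg20, an exonuclease that degrades viral RNA, and Ifitm1. Isg20 was at 49.8, 43.0, 48.6 and 60.1 CPM in delta-IDR and 92.4, 77.2, 73.2 and 73.9 CPM in delta-CC-LCD (-0.65 ± 0.10, adjusted p = 0.000268), and full-length and control were at 86.2 and 25.4 CPM. Among the 5 proteins that restrict viral entry or release, Bst2, which tethers budding viruses to the cell, was at 141, 156, 127 and 182 CPM against 71.5, 71.8, 73.2 and 79.8 CPM (1.03 ± 0.09). Ifitm3, which blocks fusion of viruses with endosomes, was higher by 0.42 ± 0.06. Its neighbour Ifitm1 was lower (-0.44 ± 0.14, adjusted p = 0.0216) at 5.26 to 6.59 CPM against 6.04 to 9.04 CPM, with overlapping ranges. That call was lost without delta-IDR library 2 (adjusted p = 0.0787), delta-CC-LCD library 3 (0.061) or delta-CC-LCD library 4 (0.0642), and with libraries summed (0.0522).

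Of 4 tested genes listed under negative feedback, 2 were higher, 1 was lower and 1 did not pass, or 75% called against 22.3% of all genes tested. Usp18, which removes ISG15 from proteins and blocks the type I receptor, was at 31.2, 28.5, 22.7 and 26.0 CPM against 5.32, 3.23, 4.32 and 6.15 CPM (2.51 ± 0.15, adjusted p = 4.1e-13). Isg15, the ubiquitin-like protein that is attached to targets in the response, was at 20.4, 16.2, 15.1 and 16.5 CPM against 2.57, 3.23, 2.71 and 4.73 CPM (2.36 ± 0.17, adjusted p = 1.7e-11). In both genes every delta-IDR library was above every delta-CC-LCD library. Socs3, an inhibitor of cytokine receptors that signal through STAT3, was lower, at 20.2 ± 2.67 against 28.5 ± 1.08 CPM (-0.50 ± 0.08, adjusted p = 2.98e-05).

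**Figure D3:**
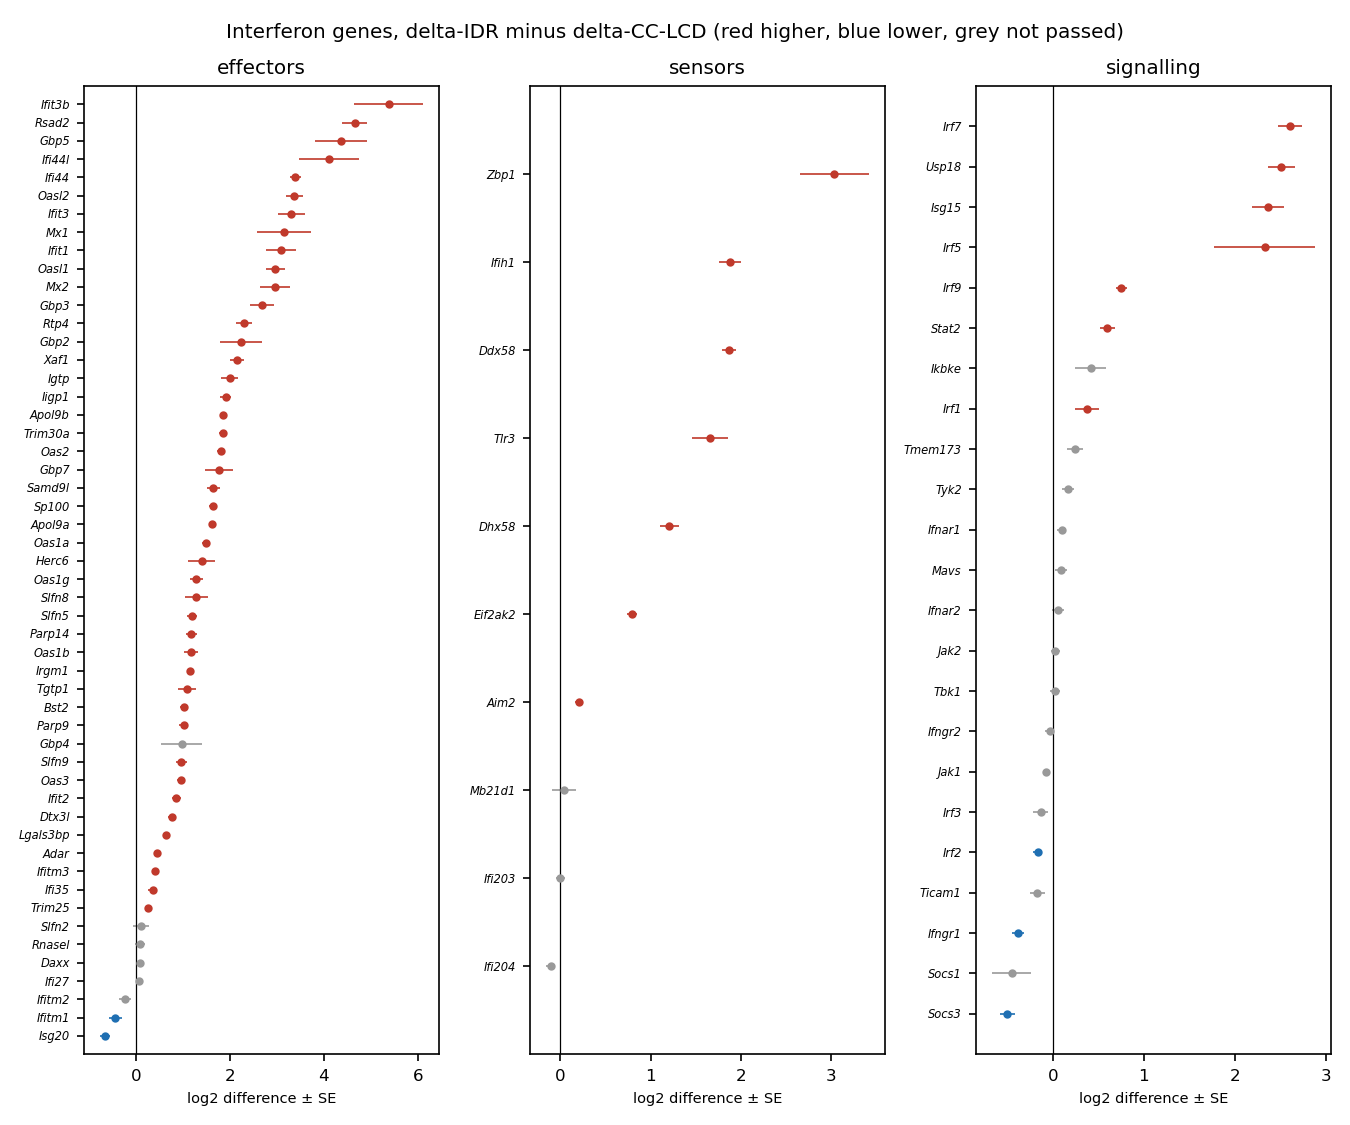
Log2 difference of delta-IDR minus delta-CC-LCD with its standard error for tested members of the interferon lists, in a panel each for effectors, sensors and signalling, with not every signalling gene shown. Sensors and effectors lie mostly right of 0, with a median of 1.34 for the effectors. The tested receptors, kinases and adaptors ran from -0.39, for Ifngr1, to 0.41.

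Antigen presentation by MHC class I was higher in 11 of 21 tested genes and lower in none, with a median of 0.15. The called share was 52.4%, against 22.3% of all genes tested. Of 6 heavy-chain genes, 4 were higher. The nonclassical H2-T22 was at 105 ± 7.08 CPM in delta-IDR and 59.5 ± 2.93 CPM in delta-CC-LCD (0.82 ± 0.06, adjusted p = 1.85e-12), and the classical H2-K1 was higher by 0.15 ± 0.04 (adjusted p = 0.00721, with 0.111 for summed libraries and 0.071 without delta-CC-LCD library 1 and delta-IDR library 4 together). H2 genes also share sequence with each other. Nlrc5, the transactivator of class I genes, was at 50.2 ± 2.90 against 32.8 ± 3.71 CPM (0.61 ± 0.07), and Tap1, a subunit of the peptide transporter, was higher by 0.47 ± 0.08. The light chain B2m was higher by 0.20 ± 0.05 (adjusted p = 0.00916), and its call was lost without delta-CC-LCD library 3 (0.0528) or library 4 (0.0548). None of the 5 immunoproteasome genes passed, with Psmb8 at 0.14 ± 0.07. The number of higher class I genes was 9 without delta-IDR library 3 and 6 with libraries summed.

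Chemokines, which draw leukocytes, were higher in 6 of 8 tested genes, and none was lower. The called share was 75%, against 22.3% of all genes tested. Ccl5, which draws T cells and monocytes, was at 4.69, 6.74, 5.72 and 5.31 CPM against 0.239, 0.235, 0.634 and 0.237 CPM (4.03 ± 0.28, adjusted p = 2.52e-12), and full-length and control were at 0.210 and 0.300 CPM. The interferon-induced Cxcl9 was at 1.11 to 2.57 CPM against 0.237 to 0.411 CPM (2.47 ± 0.39), and Cxcl10 was higher by 3.11 ± 0.57 from libraries partly at 0. Ccl2, which recruits monocytes, was higher by 0.50 ± 0.08 and the neutrophil attractant Cxcl1 by 0.99 ± 0.15. The NF-kB list, which holds subunits, inhibitors and inflammatory targets, was higher in 9 of 19 and lower in 3, with a median of 0.16. Its called share was 63.2%. The cytokine Lif was at 10.9, 10.2, 13.2 and 11.5 CPM against 5.38, 6.04, 5.93 and 4.55 CPM (1.06 ± 0.14, adjusted p = 6.22e-07), and Ptgs2, the inducible cyclooxygenase, was higher by 0.69 ± 0.12. The subunit Rela was higher by 0.27 ± 0.06. Of the inhibitors, Nfkbie was higher by 0.75 ± 0.18 and Nfkbia, which GR also induces, was lower (-0.34 ± 0.05, adjusted p = 6.26e-06). The number of higher NF-kB genes was 5 with libraries summed.

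Many genes of the hypoxia response and of glycolysis were lower in delta-IDR. Of 40 tested genes, 24 were lower and 2 higher, with a median log2 difference of -0.46, against a background of 10.7% called lower. Members were chosen with earlier results known, so here too the counts are a description. Of 18 genes of glucose transport and glycolysis, 13 were lower, as were 8 of 15 other hypoxia targets. In the targets and enzymes named below, delta-CC-LCD library 1 was the highest of its group and delta-IDR library 4 the highest or close to the highest of its own, so the spread within groups was wide. Without both libraries 25 genes were lower. Without delta-CC-LCD library 1 alone, Car9 and Pgk1 moved from -1.09 and -0.59 to -0.64 and -0.42, and the part of these libraries in the result was not tested. The number of lower genes was 19 without delta-IDR library 3, and 14 when only the 8 libraries of both deletions were fitted. The count of 2 higher genes was 1 without any 1 of these libraries except delta-IDR library 4. In bulk libraries, fewer cells that express a gene and less RNA per cell cannot be told apart.

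Egln3, a prolyl hydroxylase that HIF itself induces, was at 68.8, 65.4, 74.8 and 93.2 CPM in delta-IDR and at 278, 201, 152 and 161 CPM in delta-CC-LCD. The highest delta-IDR library was below the lowest delta-CC-LCD library, and the log2 difference was -1.39 ± 0.17 (adjusted p = 6.75e-05). The means of full-length and control were 179 and 493 CPM. Bnip3, which directs mitochondria to autophagy, was at 155, 120, 153 and 188 CPM against 406, 327, 265 and 253 CPM (-1.02 ± 0.16, adjusted p = 0.000363). Its levels in full-length and control were 458 and 434 CPM, so both deletions had lower means than these groups. The Bnip3 promoter is shown because it holds the core letters of a HIF element, ACGTG, and the line gives 250 bases before the RefSeq start (GRCm38.p6, chr7:138909507-138909756, minus strand), with capitals for the matches.
Bnip3: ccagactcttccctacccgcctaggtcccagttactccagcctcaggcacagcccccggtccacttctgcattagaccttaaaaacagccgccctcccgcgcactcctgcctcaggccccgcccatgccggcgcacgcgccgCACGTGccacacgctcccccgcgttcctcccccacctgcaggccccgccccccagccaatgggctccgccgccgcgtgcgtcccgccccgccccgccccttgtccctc
The capitals are 2 overlapping matches, 1 on each strand, that begin at -108 and -107. In promoters of 300 bases, ACGTG on either strand was found in 25 of 37 hypoxia and glycolysis genes (67.6%). It was found in 29.1% of tested genes and in 21.8% of all genes with a promoter. Among genes called and at least 2-fold lower, it was found in 27 of the 83 with a promoter in the table (32.5%), and among those at least 2-fold higher in 10 of 93 (10.8%).

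Messenger RNA of several genes of glucose transport and glycolysis was lower. Slc2a1, the glucose transporter GLUT1, was at 59.2, 52.1, 57.6 and 70.8 CPM against 134, 110, 85.7 and 87.8 CPM (-0.80 ± 0.13, adjusted p = 0.000612). Hk2, which phosphorylates glucose, was lower (-0.60 ± 0.10), as was the phosphofructokinase subunit Pfkl (-0.66 ± 0.12). Ldha, which makes lactate, was at 1090, 995, 1064 and 1330 CPM against 1911, 1619, 1300 and 1386 CPM, with overlapping ranges (-0.47 ± 0.12, adjusted p = 0.0113, and 0.0788 with only both deletions fitted). Slc16a3, the transporter that exports lactate, was at 1.68, 0.931, 1.09 and 1.63 CPM against 7.18, 3.81, 3.05 and 2.72 CPM (-1.65 ± 0.28, adjusted p = 0.000147). Its delta-IDR libraries were all below its delta-CC-LCD libraries. Pdk1, which holds pyruvate back from mitochondria, was lower by 0.89 on the log2 scale (-0.89 ± 0.15), Kdm3a, a histone demethylase, by 0.77 (-0.77 ± 0.11), and Ankrd37 by 1.45 (-1.45 ± 0.32). P4ha1, which hydroxylates collagen, was lower by 0.28 (-0.28 ± 0.05). The glycolytic kinase Pgk1 was lower with overlapping ranges (-0.59 ± 0.17, adjusted p = 0.0264), and its call was lost without delta-IDR library 1 (0.0602), 2 (0.0769) or 3 (0.0695), or delta-CC-LCD library 1 (0.0637) or 2 (0.0513), and with only both deletions fitted (0.0997).

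Of the HIF subunits, Hif1a and Arnt moved little, while Hif3a was lower and is given with the glucocorticoid-induced genes below. Hif1a was at 349 ± 20.5 against 396 ± 8.17 CPM (-0.18 ± 0.05, adjusted p = 0.0064, and 0.0519 with libraries summed) and its partner Arnt at 74.6 ± 2.89 against 64.4 ± 3.10 CPM (0.21 ± 0.05, adjusted p = 0.00241). Vhl, which targets hydroxylated HIF for destruction, was lower (-0.32 ± 0.08, adjusted p = 0.00265). The main HIF hydroxylase Egln1 did not pass (-0.46 ± 0.18, adjusted p = 0.085), although it did in DESeq2 (0.0462) and without delta-CC-LCD library 3 (0.0419). Some well-known targets did not pass either. Vegfa, the vascular growth factor, was at 279 ± 19.7 and 330 ± 63.3 CPM (-0.24 ± 0.11, adjusted p = 0.153), and Ndrg1 was at 177 ± 38.8 and 254 ± 104 CPM (-0.52 ± 0.24, adjusted p = 0.15). The surface carbonic anhydrase Car9 was at 129, 78.9, 144 and 204 CPM against 537, 271, 171 and 201 CPM (-1.09 ± 0.35, adjusted p = 0.0416). Its ranges overlapped, and the call was lost without delta-IDR library 1 (adjusted p = 0.0922), 2 (0.108) or 3 (0.0824), and without delta-CC-LCD library 1 (0.124) or 2 (0.0641). It was also lost with no filter (0.0758), with only both deletions fitted (0.165) and with libraries summed (0.0655).

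Genes that glucocorticoids induce were lower in delta-IDR in 19 of 33 tested members and higher in 1, with a median of -0.25. The called share was 60.6%, against 22.3% of all genes tested. The number of lower members was also 19 without delta-IDR library 3, and it was 13 with libraries summed. Nr3c1, the gene of GR, was at 140, 137, 135 and 130 CPM in delta-IDR and 125, 138, 140 and 132 CPM in delta-CC-LCD (0.02 ± 0.04, adjusted p = 0.826), with overlapping ranges. Fkbp5, the GR chaperone partner, was at 934, 870, 882 and 940 CPM against 1310, 1306, 1303 and 1355 CPM (-0.54 ± 0.04, adjusted p = 6.39e-13). Delta-IDR lay below and delta-CC-LCD above the full-length mean of 1108 CPM, and control lay at 211 CPM. Tsc22d3, the anti-inflammatory leucine zipper GILZ, was at 215, 198, 185 and 186 CPM against 232, 243, 224 and 236 CPM (-0.25 ± 0.05, adjusted p = 0.000184), with 204 CPM in full-length and 8.29 CPM in control.

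Other well-known targets of GR did not pass. Sgk1, a kinase of sodium transport, was at 910, 894, 936 and 895 CPM against 997, 923, 901 and 821 CPM, with means of 909 and 910 CPM (adjusted p = 0.976). The clock gene Per1 was at 198, 182, 192 and 181 CPM against 195, 189, 175 and 168 CPM (0.05 ± 0.05, adjusted p = 0.49). The phosphatase Dusp1 was at 209 ± 8.29 and 206 ± 22.1 CPM (0.02 ± 0.06, adjusted p = 0.85). The list thus held members called lower beside members that did not pass.

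The members with the largest falls were a signalling gene and metabolic genes. Rgs2, which ends signals of G proteins, was at 9.83, 8.71, 7.44 and 9.68 CPM against 26.2, 24.0, 22.6 and 21.5 CPM (-1.40 ± 0.10, adjusted p = 6.1e-12), with 22.4 CPM in full-length and 0.378 CPM in control. Lcn2, an iron-binding acute-phase protein, was at 76.8, 77.3, 80.2 and 87.4 CPM against 171, 194, 189 and 181 CPM (-1.19 ± 0.17, adjusted p = 0.000199, and 0.0611 with libraries summed). Glul, which makes glutamine, was at 216, 192, 199 and 211 CPM against 437, 413, 378 and 409 CPM (-1.001 ± 0.04, adjusted p = 8.35e-17). In each of the 3 the groups were far apart, and for Glul the full-length mean of 324 CPM lay between the deletions, with control at 33.9 CPM. Hif3a, an inhibitory HIF subunit that glucocorticoids induce, was lower by 0.82 (-0.82 ± 0.10), the mTORC1 inhibitor Ddit4 by 0.74 (-0.74 ± 0.11), the kinase Map3k6 by 0.63 (-0.63 ± 0.07) and the crosslinking enzyme Tgm2 by 0.42 (-0.42 ± 0.05). The kinase subunit Pik3r1 and the factor Klf15 were lower by 0.25 each (-0.25 ± 0.05 for both). Zbtb16, a zinc finger factor, was lower by 0.81 (-0.81 ± 0.23, adjusted p = 0.011, and 0.0845 with libraries summed). Ddit4 is also induced by hypoxia. The metallothionein genes Mt2 (-0.53 ± 0.08) and Mt1 (-0.42 ± 0.11) bind metals and were also lower, Mt1 with an adjusted p of 0.0678 when libraries were summed.

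The member that was higher was Cebpb, a transcription factor of inflammation and fat cell formation (0.14 ± 0.05, adjusted p = 0.0345). Its call was lost without delta-IDR library 2 (adjusted p = 0.101) or 3 (0.195), and without delta-CC-LCD library 2 (0.0945), 3 (0.14) or 4 (0.143). It was also lost with DESeq2's size factors (0.0509), in DESeq2 itself (0.0663) and with libraries summed (0.114). Without delta-CC-LCD library 1, 2 members were higher. Among 18 genes of GR's receptors, chaperones and coregulators, 1 was higher and 2 lower, or 16.7% called, near the 22.3% of all genes tested. The coactivator Ncoa1 was higher by 0.27 ± 0.05, while the chaperone Hspa8 was lower (-0.17 ± 0.03).

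**Figure D4:**
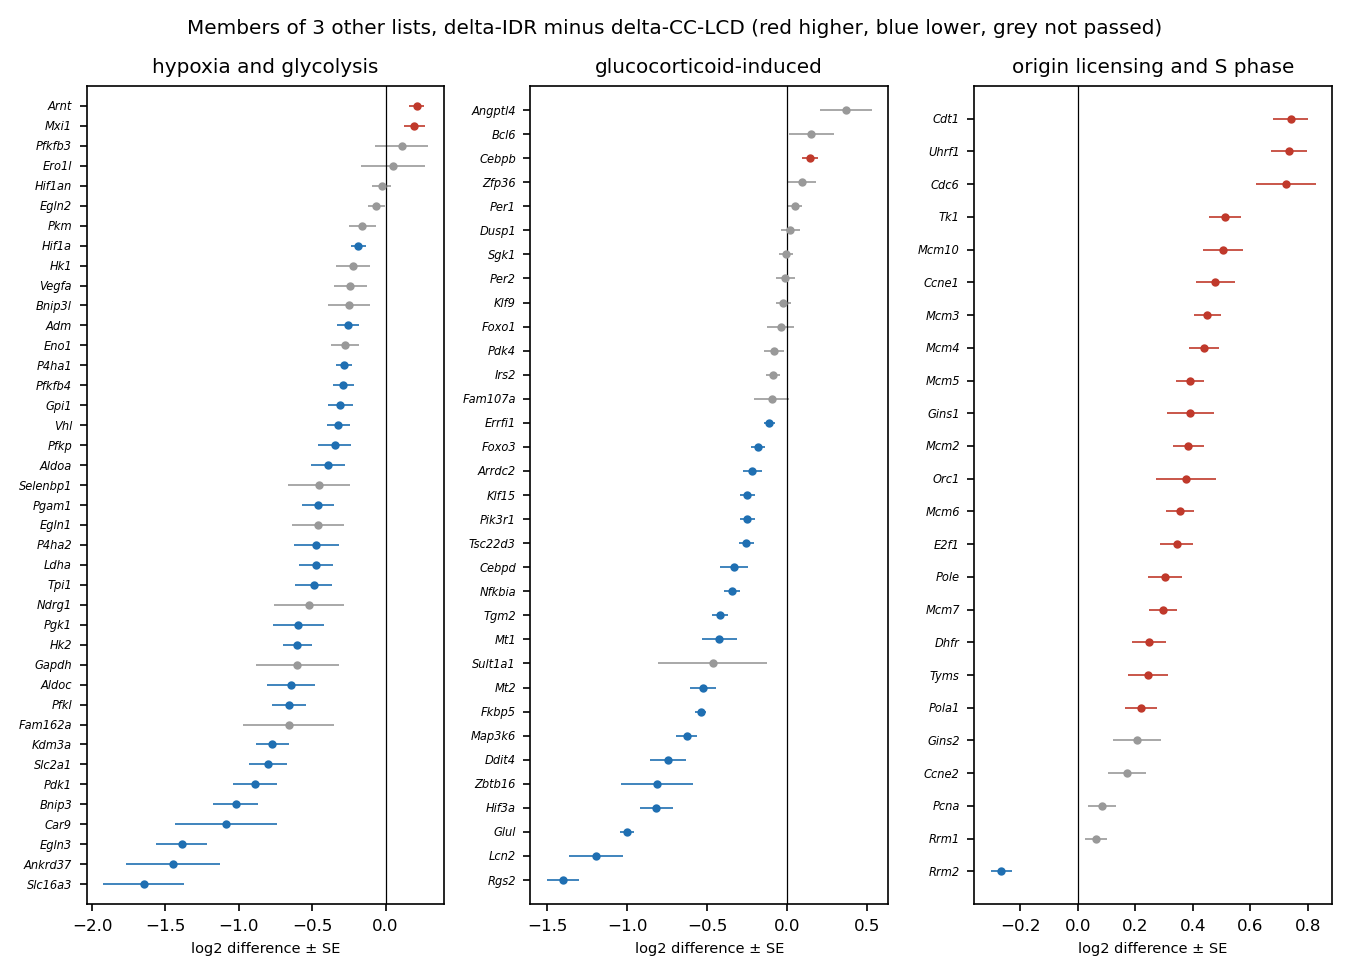
Log2 difference of delta-IDR minus delta-CC-LCD with its standard error for tested members of the hypoxia and glycolysis, glucocorticoid-induced and S phase lists. The first group has a median of -0.46 and the second of -0.25, with most members left of 0, and most S phase genes lie right of 0, with a median of 0.37.

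Outside these lists, the protein-coding genes with the largest falls, where the mean reached 2 CPM, had varied functions. Gda, a guanine deaminase, was at 24.9, 16.3, 17.7 and 20.6 CPM in delta-IDR and 85.4, 86.5, 80.8 and 80.4 CPM in delta-CC-LCD (-2.07 ± 0.14, adjusted p = 6.12e-08), with 53.3 CPM in full-length and 25.1 CPM in control. Serpina3n, an acute-phase protease inhibitor, was at 0.447, 1.26, 0.629 and 1.05 CPM against 6.22, 4.23, 3.69 and 4.02 CPM (-2.41 ± 0.26, adjusted p = 3.04e-08). Its close relative Serpina3m was lower by 2.13 (-2.13 ± 0.23), and since reads of this family can be shared between copies, the split between them is uncertain. Trim9, a ubiquitin ligase best known from neurons, was at 17.1, 12.9, 11.6 and 14.6 CPM against 45.8, 53.5, 57.8 and 56.3 CPM (-1.92 ± 0.24). The receptor Notch4 was at 5.42, 5.86, 5.72 and 6.06 CPM against 20.3, 17.5, 15.7 and 17.1 CPM (-1.61 ± 0.11, adjusted p = 2.59e-12). Of 8 tested Notch pathway genes, Notch4 alone was called, or 12.5% against 22.3% of all genes tested. Ccbe1, a secreted factor of lymphatic growth, was lower by 1.76 (-1.76 ± 0.14), the amylase gene Amy1 by 1.95 (-1.95 ± 0.31) and the glycosyltransferase gene B4galnt4 by 1.63 (-1.63 ± 0.19). Ccng2, an atypical cyclin, was at 16.5, 14.1, 12.7 and 23.1 CPM against 95.1, 47.2, 34.9 and 36.2 CPM (-1.68 ± 0.32), with delta-CC-LCD library 1 far above the others and control at 203 CPM.

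Genes of DNA replication were higher in delta-IDR. Of 24 genes of origin licensing and S phase, 19 were higher and 1 lower, with a median of 0.37, and 19 were also higher without delta-IDR library 3. The called share was 83.3%, against 22.3% of all genes tested. Cdt1, which loads the replicative helicase, was at 57.5, 60.3, 63.1 and 52.5 CPM against 37.6, 35.9, 33.6 and 32.7 CPM (0.74 ± 0.06, adjusted p = 9.65e-11), with 32.3 CPM in full-length and 68.7 CPM in control. Its loading partner Cdc6 was higher by 0.72 ± 0.10, the helicase subunits Mcm3 and Mcm6 by 0.45 ± 0.05 and 0.36 ± 0.05, and Uhrf1, which keeps DNA methylation through replication, by 0.73 ± 0.06. E2f1, the factor that drives these genes, was higher by 0.34 ± 0.06 and Ccne1, cyclin E1, by 0.48 ± 0.07. The nucleotide enzyme Tk1 was higher by 0.51 ± 0.06, whereas Rrm2, a subunit of ribonucleotide reductase, was the member that was lower (-0.27 ± 0.04, adjusted p = 1.68e-06). Pcna, the sliding clamp, did not pass (0.08 ± 0.05, adjusted p = 0.246). An E2F element, TTT followed by GGCGC, was found on either strand in 5 of 18 of these promoters (27.8%) and in 1.11% of those of tested genes.

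Genes of G2 and mitosis were higher in 8 of 19 and lower in 1, with a median of 0.16. Calls made up 47.4%, against 22.3% of all genes tested. Kif20a, a kinesin of cell division, was higher by 0.31 ± 0.05, the mitotic kinase Plk1 by 0.22 ± 0.04 and Aurka by 0.19 ± 0.05. The number of higher genes was 3 without delta-CC-LCD library 1 and 5 without delta-IDR library 2. The 1 lower gene was not called without delta-IDR library 1 or 4 or delta-CC-LCD library 2 or 3. The lists of S phase and of mitosis differed in how many of their members were called, and that difference was not tested.

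Targets of the serum response factor (SRF) and of YAP, which follow actin tension and growth signals, were higher in 14 of 26 tested genes and lower in 5, with a median of 0.19. Calls made up 73.1%, against 22.3% of all genes tested. Srf was at 79.7, 84.4, 90.7 and 92.0 CPM against 65.8, 63.0, 61.5 and 58.1 CPM (0.48 ± 0.05), and its cofactor Mkl1 was lower (-0.49 ± 0.06). The YAP relative Wwtr1, or TAZ, was higher by 0.38 ± 0.05. Of the SRF targets, Tpm1, a tropomyosin, was higher by 0.43 ± 0.05, the actin crosslinker Flna by 0.22 ± 0.04 and Filip1l by 0.57 ± 0.07. Among YAP targets, Cyr61 was at 463, 451, 463 and 400 CPM against 387, 370, 337 and 323 CPM (0.33 ± 0.05) and Ankrd1 was higher by 0.59 ± 0.11, while F3, tissue factor, and Arhgef17 were lower (-0.39 ± 0.08 and -0.26 ± 0.05). The list had 13 higher members without delta-IDR library 3, and its lower members numbered 3 without delta-CC-LCD library 1.

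Immediate-early genes were higher in 7 of 30 and lower in 4, or 36.7% called against 22.3% of all genes tested. Egr1, a zinc finger factor that growth factors induce within minutes, was at 135, 147, 149 and 123 CPM against 60.8, 78.9, 66.1 and 51.3 CPM (1.11 ± 0.14, adjusted p = 5.56e-05), with 191 CPM in full-length and 66.3 CPM in control. Fos was at 11.5, 11.99, 11.3 and 11.4 CPM against 5.92, 6.92, 6.16 and 4.67 CPM (0.96 ± 0.13). Its AP-1 partner Jun was at 49.7, 43.7, 50.5 and 47.3 CPM against 71.2, 65.3, 68.0 and 61.0 CPM (-0.47 ± 0.12, adjusted p = 0.0101, with 0.138 for summed libraries and 0.059 without delta-CC-LCD library 1 and delta-IDR library 4 together). Thus Fos was higher and Jun lower in every delta-IDR library than in any delta-CC-LCD library. The number of lower immediate-early genes was 2 without delta-IDR library 2 or 3, or without delta-CC-LCD library 1 or 2. The EGF receptor ligand Hbegf was higher by 0.47 ± 0.08, and the receptor Erbb3 by 1.34 ± 0.39 at under 1 CPM. The call of Erbb3 was lost with libraries summed (adjusted p = 0.0548) and without delta-CC-LCD library 1 and delta-IDR library 4 together (0.0559).

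Lists of adhesion and actin cortex genes were counted as well. Of 26 genes of the actin cortex, 6 were higher and 2 lower, or 30.8% called against 22.3% of all genes tested. Arhgef2, an activator of RhoA that is bound to microtubules, was at 233, 226, 233 and 225 CPM against 146, 146, 153 and 135 CPM (0.66 ± 0.04, adjusted p = 1.69e-13), with 205 CPM in full-length and 373 CPM in control. Arhgap29, which turns RhoA off, was lower (-0.79 ± 0.17, adjusted p = 0.00386), with delta-CC-LCD library 1 at 54.6 CPM above the 36.2 to 37.4 CPM of the others in its group. The nonmuscle myosin Myh9 was higher by 0.23 ± 0.04. Among genes with FERM domains, Frmd8, which stabilises the sheddase complex iRhom and ADAM17, was higher by 0.33 ± 0.06 and the membrane-skeleton gene Epb41 by 0.18 ± 0.04. The count of 2 lower cortex genes was 1 without delta-IDR library 2, 3 or 4 or delta-CC-LCD library 1, 2 or 4. Of 10 adhesion genes, 2 were higher and 4 lower, or 60% called. The number higher was 0 or 1 without any 1 library except delta-IDR library 4. The fibronectin receptor subunit Itga5 was at 416 ± 24.9 against 567 ± 12.02 CPM (-0.45 ± 0.04, adjusted p = 4.65e-10), the laminin receptor subunit Itga3 was lower by 0.32 (-0.32 ± 0.06) and beta-catenin, Ctnnb1, by 0.14 (-0.14 ± 0.04).

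Extracellular matrix genes were lower in 9 of 26 and higher in 4, or 50% called against 22.3% of all genes tested. The basement membrane collagens Col4a1 and Col4a2 were lower (-0.40 ± 0.04 and -0.36 ± 0.04), as were Col6a1 and Col6a3 (-0.45 ± 0.06 and -0.48 ± 0.05), which form microfibrils. The fibrillar collagen Col1a2 was higher by 0.13 ± 0.03 (adjusted p = 0.00203, and 0.13 with libraries summed). Vcan, a large proteoglycan, was at 430, 368, 393 and 373 CPM against 739, 639, 633 and 637 CPM (-0.76 ± 0.07, adjusted p = 1.17e-07), with 465 CPM in full-length and 152 CPM in control. The plasminogen activator Plat was higher by 0.88 ± 0.21, and the crosslinking enzyme Loxl2 was lower (-0.73 ± 0.17, adjusted p = 0.0088, and 0.0555 with only both deletions fitted). The number of higher matrix genes was 2 without delta-CC-LCD library 3 or 4. Without delta-IDR library 3, 3 matrix genes were higher and 9 lower. Thbs2, a matricellular glycoprotein, was lower (-0.31 ± 0.04). Of the fibroblast markers, Pdgfrb was higher by 0.58 ± 0.06 and Pdgfra lower (-0.22 ± 0.05). Of 20 genes of TGF-beta and BMP signalling, 6 were higher and 3 lower, or 45% called. The transducer Smad3 was higher by 0.55 ± 0.07 and the ligand Tgfb3 by 0.64 ± 0.10, and the receptor Tgfbr2 was lower (-0.41 ± 0.05). Of the TGF-beta and BMP targets, Ltbp2 and Skil were higher by 0.45 ± 0.05 and 0.30 ± 0.04.

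Chaperones of the endoplasmic reticulum (ER) were higher in 10 of 12, by small amounts, with a median of 0.21, and the count was also 10 without delta-IDR library 3. The called share was 83.3%, against 22.3% of all genes tested. The disulfide enzyme Pdia4 was higher by 0.37 ± 0.04, the chaperones Hyou1 and Hspa5 (BiP) by 0.24 ± 0.03 and 0.18 ± 0.04 (adjusted p = 0.0862 for Hspa5 with libraries summed), and Creld2 by 0.34 ± 0.05. Calr, a chaperone that also loads MHC class I, was higher by 0.22 ± 0.04. Of the 6 sensors and factors of ER stress none was higher, and the kinase Eif2ak3 (PERK) and the factor Xbp1 were lower (-0.32 ± 0.07 and -0.19 ± 0.05). Of 15 targets of the amino-acid stress factor ATF4, 9 were higher and 1 lower, or 66.7% called. The higher ones included the serine enzyme Phgdh (0.32 ± 0.04) and the proline enzyme Aldh18a1 (0.34 ± 0.04). The lipoprotein receptor Vldlr was lower (-0.38 ± 0.05), with a second lower member without delta-IDR library 4. Of 13 p53 targets, 3 were higher and 3 lower, or 46.2% called. Gdf15, a stress cytokine, was higher by 0.78 ± 0.13 and the kinase Plk2 by 0.43 ± 0.06. Sesn1, an antioxidant regulator, was lower (-0.70 ± 0.06).

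The remaining lists were counted in the same way, against 22.3% of all genes called. Cholesterol genes were lower in 8 of 30 and higher in 1, with the synthesis enzymes Sqle and Lss lower by 0.22 each (-0.22 ± 0.05 for both). The number of lower cholesterol genes was 4 without delta-CC-LCD library 3, and 5 without delta-IDR library 2, 3 or 4 or delta-CC-LCD library 2 or 4. The 1 higher cholesterol gene was not called without delta-IDR library 1 or 3 or delta-CC-LCD library 1 or 2. Of 10 fatty acid genes, 2 were lower, among them the desaturase Scd2 (-0.28 ± 0.04). Of 28 ribosomal protein genes, whose copies share reads, 8 were lower and none higher, with Rps4x at -0.19 and Rps6 at -0.18. That count was 17 without delta-IDR library 4, 5 without delta-IDR library 2 and 3 without delta-IDR library 1 or 3. Of 14 targets of NRF2 and metals, 5 were lower, among them ferritin Fth1 (-0.22 ± 0.04) and the quinone reductase Nqo1 (-0.27 ± 0.06). Of 13 heat shock chaperones 1 was higher and 2 lower, of 7 Wnt genes 2 were higher and 2 lower, and of 6 EGF receptor and ligand genes 3 were higher. None of the 20 nuclear respiratory chain genes was called with edgeR, nor any of the 13 protein-coding transcripts of the mitochondrial genome. At an unadjusted p, 4727 genes in all were below 0.05, and the count of lower respiratory chain genes was 2 without delta-IDR library 4.

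**Figure D5:**
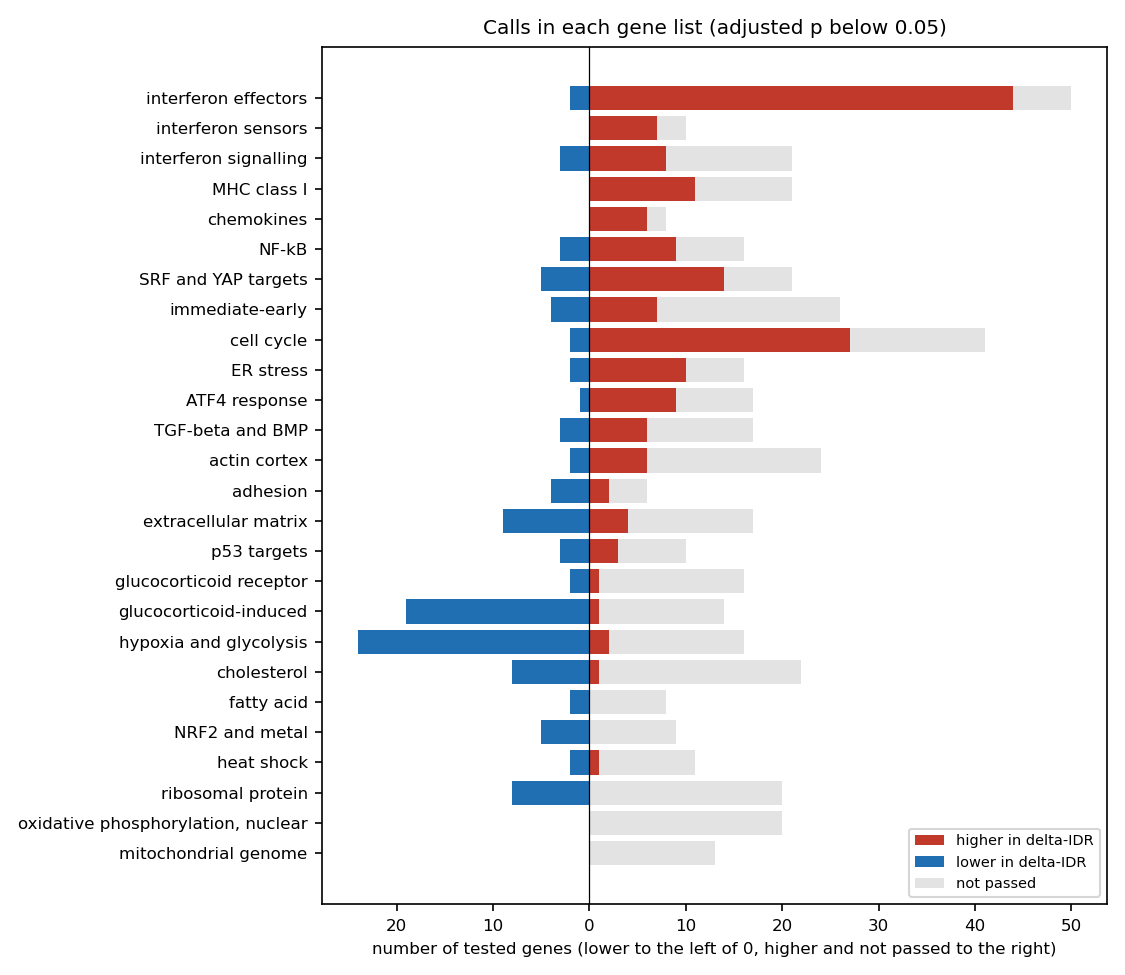
Number of tested genes of each list called higher in delta-IDR (red, right), called lower (blue, left) or not passed (grey, right) at an adjusted p below 0.05. The bars of the interferon effectors (44 of 52) and of the cell cycle genes (27 of 43) lead on the right, and those of hypoxia and glycolysis (24 of 40) and glucocorticoid-induced genes (19 of 33) on the left.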

How the data were processed

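RNA from 16 L929 libraries in 4 groups of 4 was analysed, of which 8 enter the comparison. The deposited table holds whole-number counts per gene that the authors made from poly-T selected messenger RNA. Reads were aligned with HISAT2 2.2.1 to mm10, per the submitters' processing notes. No source used here names the counting tool or its use of strand, so reads of overlapping or near-identical genes may be shared.

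Of 54532 genes, 14118 passed edgeR's filterByExpr. edgeR 4.0.16 (R 4.3.3) with TMM scaling and a robust quasi-likelihood fit over all 16 libraries gave log2 differences of delta-IDR minus delta-CC-LCD, printed with ± SE, and Benjamini-Hochberg adjusted p-values, called below 0.05. All adjusted p-values in the text are from edgeR unless another tool is named. CPM use TMM-scaled sums of the tested genes, and ± beside CPM is the SD. Named genes were Frmd5, Nr3c1, Fkbp5, Tsc22d3, Per1 and Sgk1, the 10 largest called rises and falls of protein-coding genes whose mean reached 2 CPM and whose library ranges stayed apart, up to 4 called members per list role at that level, and list members given to show a range or a gene that did not pass. Some genes that this rule names are not reported here. The comparison, members and lists were chosen with earlier results of these data known. In simulated data with 14118 genes, 50 were changed at each fold. The test recovered 58% of 1.25-fold, 54% of 1.5-fold, 74% of 2-fold and 98% of 4-fold changes, with 2.07% of 145 calls false. Far fewer genes were changed there than were called in the data, so these rates may not carry over. Alternatives were DESeq2 1.42.0, its size factors, no filter, a fit of both deletions only, a replicate block, summed libraries and leaving out each library. The number of libraries limits the precision, and depth was 17211270 to 18313407 counts per library.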

Additional observations from a re-analysis of the deposited data

Results flagged for a closer look

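For a group of 4 libraries, a value was listed when the gap to its nearest neighbour as a share of the group's range exceeded Dixon's critical value at the 95% level. Chance lists about 1 in 20 groups, and 29 of 364 group values of named genes were listed, 7 of them in delta-CC-LCD library 1 and 3 in delta-IDR library 4.

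In delta-CC-LCD library 1, Vcan was at 739 CPM, Arhgap29 at 54.6 CPM and Vegfa at 425 CPM, above the rest of the group. Mcm6 was at 181 CPM, Wwtr1 at 57.2 CPM, Calr at 1530 CPM and Col6a1 at 1855 CPM there, below the rest. In delta-IDR library 4, Mcm6 was low at 235 CPM, while Ankrd37 at 4.66 CPM and Dusp1 at 222 CPM were high.

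In delta-CC-LCD library 2, Ifi44 was low at 7.86 CPM, while Cxcl1 at 4.23 CPM, Ifitm3 at 288 CPM and Xbp1 at 208 CPM were high. Library 3 of that group was high for Irgm1 at 34.6 CPM, Oasl1 at 2.07 CPM, Ccl5 at 0.634 CPM and Irf1 at 5.65 CPM. Library 4 was high for Fkbp5 at 1355 CPM and Ifit3 at 1.18 CPM and low for Gdf15 at 6.27 CPM.

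In delta-IDR library 1, Ccbe1 at 5.31 CPM, Dhx58 at 24.0 CPM and Col1a2 at 2405 CPM were high. In library 2, Kdm3a at 45.6 CPM and Rela at 58.9 CPM were low. In library 3, Itga3 was low at 24.5 CPM, and Col12a1 at 3.66 CPM and Postn at 6.87 CPM were high. The same library held 110 counts of Krt1, 26 of Flg, 16 of Lor, 22 of Dcn, 18 of Lum and 16 of Tnc, each at 0 in the other delta-IDR libraries.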

How the results depend on the processing

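With libraries 1 and 3, and 2 and 4, of each group summed, 1023 genes were higher against 1631, and 2057 of the 2088 calls were also called in the full fit. By chi-square of the counts per degree of freedom, these pairs were the most alike in full-length (3.77 and 3.67, others 8.11 to 9.86). In delta-CC-LCD, libraries 1 and 3 were the least alike (9.41), so the pairs do not describe that group. Leaving out 1 library gave 1233 to 1648 higher and 1227 to 1580 lower genes. With DESeq2 the numbers were 1493 and 1679, and with its size factors in edgeR 1489 and 1654. The replicate numbers did not pair the samples (r of -0.007 to 0.01 for deviations over 4 pairs), and with the replicate block 1584 genes were higher and 1475 lower, with adjusted p = 0.054 for Cebpb and 0.0681 for Car9. Without delta-CC-LCD library 1 and delta-IDR library 4 together, an alternative chosen after seeing the data, the numbers were 1502 and 1627. Of 168 named genes called, 151 were called under every alternative and 162 kept call and sign without each library. Genes near 0 changed sign. Without 1 library, Per1 ran from -2e-04 to 0.0761, Nr3c1 from -0.0246 to 0.0328, Dusp1 from -0.0342 to 0.0806 and Sgk1 from -0.0626 to 0.0338. Without both of those libraries Nr3c1 was at -0.0045 and Sgk1 at 0.0414. The cause was not tested. Summed libraries gave 2 lower ribosomal protein genes against 8, 4 higher mitotic genes against 8, 4 lower cholesterol genes against 8, 4 higher and 2 lower immediate-early genes against 7 and 4, and 1 lower TGF-beta gene against 3. No filter gave 9 higher matrix genes against 4, and a fit of both deletions alone gave 7 lower immediate-early genes. Col12a1 passed in DESeq2 (adjusted p = 0.0286), with no filter (0.0106), the block (0.0176), summed libraries (0.0112) and without delta-IDR library 1 (0.0329). All of these fits kept delta-IDR library 3, where Col12a1 had 64 counts against 7, 11 and 14 in the other delta-IDR libraries. The part of that library in these calls and in the 9 higher matrix genes was not tested. Low counts limit Frmd5 and the interferon genes, where a difference was not detectable at this depth.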
